A study of Mus musculus with 30 samples.

Results

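The 38 Hox genes described here lie in 4 clusters of the mouse genome and were taken by gene name and cluster position out of 45706 genes in the expression tables. HoxA (chromosome 6) contributed 10 genes, HoxB (chromosome 11) 10, HoxC (chromosome 15) 9 and HoxD (chromosome 2) 9. RNA was measured in 8 poly(A) libraries, 2 in each of 4 groups of mouse cells. The groups were wild-type ES cells, wild-type induced motor neurons, and induced motor neurons of the lines named HD and EH, both of which carry the genotype label Mnx1KO. All motor neuron groups went through the same induction to day 6, with 1 µM RA (retinoic acid), 1 µM SAG (an agonist of the hedgehog pathway), 1 µM DOX (doxycycline) and 5 µM DAPT (an inhibitor of Notch cleavage). The labels do not explain the names HD and EH, do not say how many clones stand behind each line, and do not say that the 2 libraries of a group came from separate cultures, so the tests measure only the spread between these libraries. ChIP-seq peak lists were given for 5 histone marks in wild-type and HD motor neurons and for Mnx1 in wild-type motor neurons. The antibodies named for ChIP include one to GFP and none to Mnx1.

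Hox genes encode homeodomain transcription factors that give cells their position along the head-to-tail axis. They stand in each cluster in the order of the axis: low paralog numbers are active first and in the hindbrain, middle numbers at neck, forelimb and thoracic levels of the spinal cord, and high numbers at lumbar and sacral levels. Retinoic acid opens the low-numbered end of the clusters in differentiating ES cells, while the high-numbered end keeps H3K27me3, the repressive mark that Polycomb complexes deposit. In motor neurons the Hox genes set which motor column and muscle pool a cell joins, and Mnx1 is itself a homeodomain factor of motor neurons.

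The promoters below are shown because they lie on either side of the edge between the active and the silent part of HoxA, and because Mnx1 regions lie over the Hoxa5 window and downstream of the Hoxb4 window, inside the gene. Each is a RefSeq window on GRCm38.p6 (mm10) from 250 bases before to 50 bases after the annotated start, written 5′ to 3′ on the gene's strand. Capitals mark TAAT, the core letters that homeodomains bind, or its reverse complement ATTA.
Hoxa5 (chr6:52204538-52204837, minus strand): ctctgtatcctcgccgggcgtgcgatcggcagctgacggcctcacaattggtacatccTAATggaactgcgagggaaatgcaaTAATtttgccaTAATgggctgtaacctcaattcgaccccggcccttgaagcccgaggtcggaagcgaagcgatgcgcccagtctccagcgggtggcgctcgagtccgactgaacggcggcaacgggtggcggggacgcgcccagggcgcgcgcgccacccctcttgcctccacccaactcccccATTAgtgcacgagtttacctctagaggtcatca
Hoxa6 (chr6:52208623-52208922, minus strand): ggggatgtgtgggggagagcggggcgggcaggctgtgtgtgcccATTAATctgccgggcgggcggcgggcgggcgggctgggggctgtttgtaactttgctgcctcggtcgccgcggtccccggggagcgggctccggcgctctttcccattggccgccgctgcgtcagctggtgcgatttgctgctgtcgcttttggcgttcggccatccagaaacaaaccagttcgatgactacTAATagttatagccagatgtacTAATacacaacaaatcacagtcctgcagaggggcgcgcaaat
Hoxa7 (chr6:52218524-52218823, minus strand): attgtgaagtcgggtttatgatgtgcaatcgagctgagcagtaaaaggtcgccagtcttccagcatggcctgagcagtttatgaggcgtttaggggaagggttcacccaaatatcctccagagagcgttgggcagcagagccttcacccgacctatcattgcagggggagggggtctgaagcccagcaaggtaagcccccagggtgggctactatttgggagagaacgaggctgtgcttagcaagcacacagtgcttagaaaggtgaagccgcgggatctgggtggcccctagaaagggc
Hoxb4 (chr11:96318017-96318316, plus strand): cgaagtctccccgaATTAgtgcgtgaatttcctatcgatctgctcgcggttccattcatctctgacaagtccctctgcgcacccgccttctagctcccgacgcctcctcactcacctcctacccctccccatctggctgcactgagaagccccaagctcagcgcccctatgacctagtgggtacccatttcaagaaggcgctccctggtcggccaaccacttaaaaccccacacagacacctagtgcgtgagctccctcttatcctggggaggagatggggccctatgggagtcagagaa

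The Hoxa5 window held 4 matches to TAAT, the Hoxa6 window 4 (a pair of them overlapping), the Hoxb4 window 1 and the Hoxa7 window 0. The promoter table had 24 windows for 22 of the 38 Hox genes, and 19 of the 24 (79.2%) held TAAT on either strand, against 58% of all 32851 windows in the table. The longer TAATTA was found in 2 of the 24, both of Hoxd11, against 5.29% of all windows. TGATTNAT, a PBX-HOX composite, was found in 2 (Hoxa2 and Hoxd11) against 3.22%. TTTATNG, a CDX-type motif, was found in 2 (Hoxd4 and Hoxb8) against 10.9%. The DR5 retinoic acid receptor motif was in 0 of the 24 windows and in 0.00913% of all. All motifs were searched on both strands, and a match is a description of the letters only.

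The clusters also hold 5 microRNA genes of the miR-10 and miR-196 families, shown because their seed (bases 2 to 8, in capitals) divides them into a low-numbered and a high-numbered pair.
miR-10a-5p (Mir10a, HoxB, beside Hoxb4): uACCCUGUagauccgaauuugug
miR-10b-5p (Mir10b, HoxD, beside Hoxd4): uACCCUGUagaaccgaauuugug
miR-196a-5p (Mir196a-1 in HoxB and Mir196a-2 in HoxC): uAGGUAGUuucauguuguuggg
miR-196b-5p (Mir196b, HoxA, beside Hoxa10): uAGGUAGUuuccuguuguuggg

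miR-10a-5p and miR-10b-5p differ at 1 of 23 bases (U12A, counted from 1 at the 5′ end of miR-10a-5p), and miR-196a-5p and miR-196b-5p at 1 of 22 (A12C, counted from the 5′ end of miR-196a-5p). Each pair shares its seed.

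Depth ranged from 11.2 to 13.9 M expected counts in the wild-type and HD motor neuron libraries, from 39.7 to 39.8 M in EH and from 51.3 to 53.2 M in ES cells. The Mnx1 transcript was at 395 and 343 TPM (a transcript level scaled for gene length and depth) in wild-type motor neurons, 377 and 313 in HD and 446 and 564.5 in EH, so that HD overlapped wild type and both EH libraries lay above it. It was lower in neither of the lines labelled Mnx1KO beyond the spread, and how the gene was altered is not given. All 8 spinal motor neuron markers listed were detected in every motor neuron library, and their summed TPM was 1499 to 1776 in wild type, 1422 to 1630 in HD and 1918 to 2330 in EH. Against wild type, 0 of the 8 passed in HD, with 6 fitted log2 fold changes below 0 and 2 above. Lhx4 was at 38.7 and 29.7 TPM in HD against 83.9 and 67.2 in wild type. In EH 1 of the 8 rose and 0 fell, where 9.61% of all genes rose and 11.6% fell. Markers of trophoblast, a placental lineage, were also present: the summed TPM of 12 genes was 738 to 762 in wild type, 627 to 866 in HD and 69.2 to 187 in EH, with 0 of the 12 at 0 in all motor neuron libraries, and 10 of 11 tested fell in EH and 0 in HD, where 11.6% and 0.0385% of all genes fell. Interneuron markers (8 genes) summed to 17.9 to 19.6 in wild type, 19.3 to 22.2 in HD and 5.31 to 7.17 in EH, and 3 of 5 tested fell in EH. Neural progenitor markers (6 genes) summed to 31.0 to 32.0 in wild type, 86.5 to 88.7 in HD and 38.6 to 47.1 in EH, and 1 of 5 tested rose in EH and 0 in HD, where 9.61% and 0.135% of all genes rose. The higher HD sum came from Sox1, at 66.5 and 61.8 TPM in HD against 6.18 and 12.4 in wild type. The part of these markers, and of depth, in the Hox differences below was not tested. In such bulk RNA, fewer cells of a type and less RNA per cell cannot be told apart.

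Wild-type motor neurons carried a rostral to thoracic Hox profile that ES cells lacked. Summed over the 38 genes, Hox TPM was 7.13 and 9.02 in ES cells and 1379 and 1427 in wild-type motor neurons. In ES cells 37 of the 38 genes had a mean TPM under 1, with Hoxc13 highest at 1.12. In wild-type motor neurons 17 genes had a mean TPM of 10 or more, 6 lay between 1 and 10 and 15 stayed under 1. Of 28 genes with enough counts to test, 25 rose against ES cells in edgeR's quasi-likelihood test (Benjamini-Hochberg adjusted p under 0.05), where 38.8% of all genes tested rose. Hoxc13 and Hoxd13 fell, by 2.43 and 1.75 on the log2 scale, where 36.5% of all genes fell, and Hoxb13 did not pass. The other 10 genes were not tested, because their counts were too low.

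By summed share, the level peaked at paralogs 4 and 5 and was near 0 from paralog 10 on. Paralogs 4 and 5 held 55.1% and 52.8% of the summed Hox TPM in the wild-type libraries, paralogs 6 to 8 25.8% and 29.4%, paralogs 1 to 3 18.3% and 16.6%, paralogs 9 0.692% and 1.10% and the 12 genes of paralogs 10 to 13 0.134% and 0.116%. Of those 12, 4 (Hoxc11, Hoxc12, Hoxd11 and Hoxd12) were listed at 0 in all 6 motor neuron libraries. Hoxb5 was the most abundant gene in every motor neuron group. Within clusters, Hoxa5 led HoxA, Hoxb5 HoxB, Hoxc4 HoxC and Hoxd3 HoxD in wild type. The last gene of each cluster with a mean TPM of 1 or more was Hoxa7, Hoxb9, Hoxc8 and Hoxd8 in wild type and EH, and the same genes in HD except that HoxC ran on to Hoxc9. Hoxc9, a thoracic determinant that represses forelimb-level Hox genes, was at 0.68 and 1.11 TPM in wild type, 0.92 and 1.70 in HD and 0.94 and 0.53 in EH. Its 3 pairs overlapped.

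**Figure D1:**
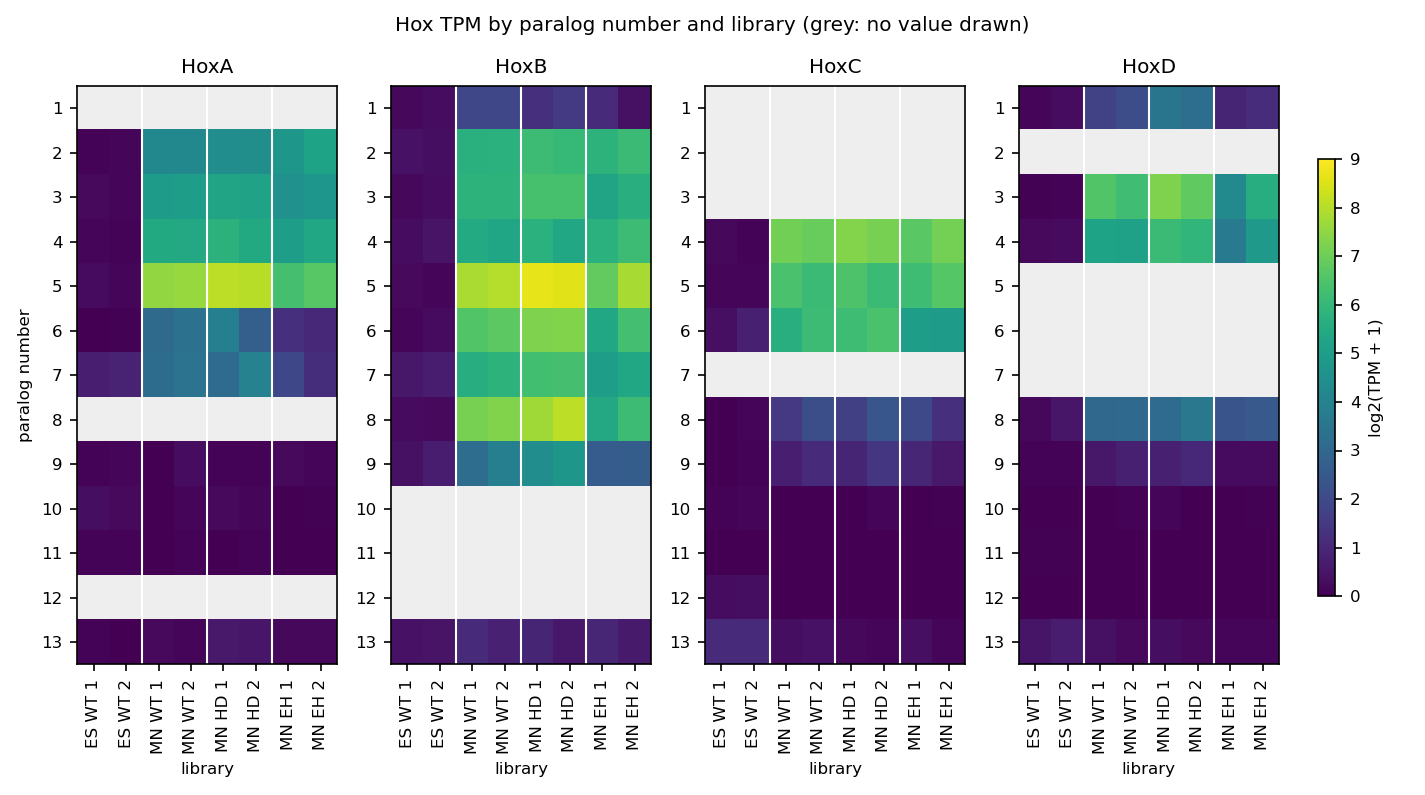
Hox level as log2(TPM + 1) by paralog number (rows) and library (columns; ES, ES cells; MN, motor neurons), 1 panel a cluster, with positions without a value in grey. Signal is near 0 in ES cells, highest in wild-type motor neurons at Hoxa5, Hoxb5, Hoxc4 and Hoxd3, and near 0 from paralog 10 on in all 8 libraries.

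HD motor neurons had a higher Hox total than wild type and EH motor neurons a lower one. The summed TPM was 2047 and 1976 in HD, 143% of the wild-type mean, and 794 and 1166 in EH, 69.8% of it. The pairs of libraries did not overlap between any of the 3 groups. By cluster, the HD mean was 131% of wild type for HoxA, 154% for HoxB, 116% for HoxC and 167% for HoxD. The EH mean was 61.5%, 70.4%, 89.2% and 45.6%. HoxC was thus nearest to wild type and HoxD farthest from it in both lines. By paralog band, the EH mean was 79.8% of wild type for paralogs 1 to 3, 77.0% for 4 and 5, 50.2% for 6 to 8 and 50.1% for 9, and the HD mean was 143%, 139%, 151% and 202%.

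**Figure D2:**
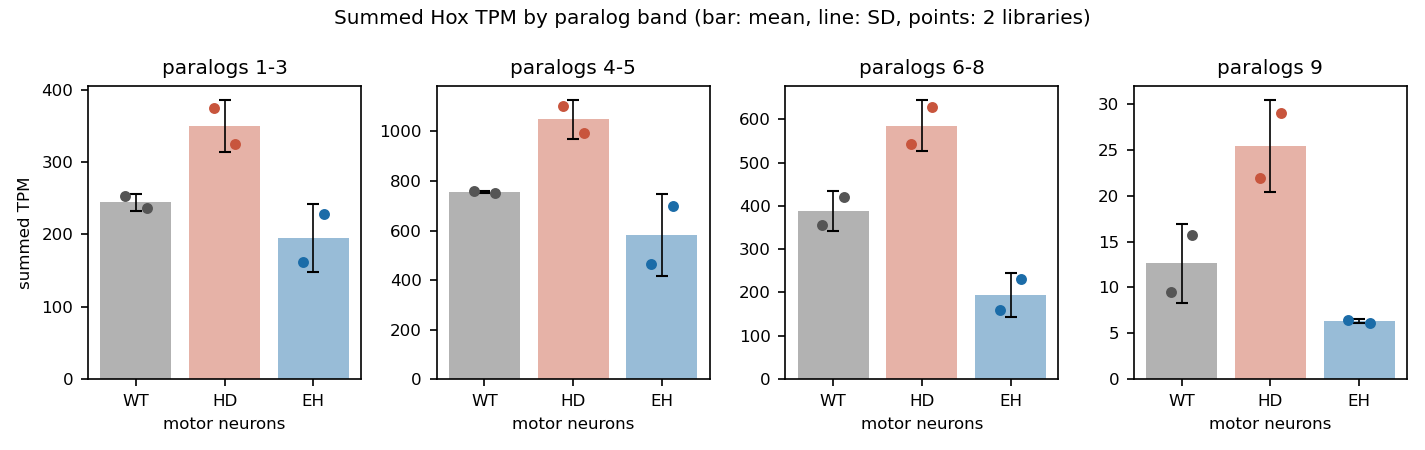
Summed TPM of the Hox genes of each paralog band in wild-type (WT), HD and EH motor neurons, with bars for the mean, lines for the SD and a point for each of 2 libraries. In the 4 bands up to paralogs 9 the HD mean lies above wild type and the EH mean below it, with HD at 350.0 against 245 in paralogs 1 to 3 and at 25.4 against 12.6 in paralogs 9.

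In the test across all genes no Hox gene passed between HD and wild type. Of 26 Hox genes tested, 0 were higher and 0 lower at an adjusted p under 0.05 in edgeR, where 0.135% of all genes were higher and 0.0385% lower. At an unadjusted p under 0.05 in edgeR there were 10, where 5.6% of all genes had one. DESeq2 called 3, all higher (Hoxd1, Hoxb3 and Hoxb9), where it called 0.938% of all genes higher and 0.231% lower. The fitted log2 fold change was above 0 for 24 of the 26 and below 0 for Hoxb1 and Hoxb13, with a median of 0.45 against -0.014 over all genes tested. With only the HD and wild-type libraries in the fit, 8 genes rose (Hoxa5, Hoxb3, Hoxb5, Hoxb6, Hoxb7, Hoxd1, Hoxd3 and Hoxd4), where 1.71% of all genes rose and 0.507% fell. Among 23 Hox genes at a mean TPM of 1 or more in wild type, both HD libraries lay above both wild-type libraries for 17 and below for 1, against 17.1% and 24.2% of all genes at that level. The 12 Hox genes left out of the test had at most 15 counts in any motor neuron library.

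Between EH and wild type, 11 Hox genes fell and 1 rose (edgeR, adjusted p under 0.05), where 11.6% of all genes fell and 9.61% rose. Those that fell were Hoxa5, Hoxa6, Hoxa7, Hoxb1, Hoxb8, Hoxb9, Hoxc6, Hoxd1, Hoxd3, Hoxd8 and Hoxd9. Hoxa2, a hindbrain gene at the low end of HoxA, rose. The median log2 fold change of the 26 was -0.64 against 0.00287 over all genes. By band it was -0.38 for paralogs 1 to 3, -0.24 for 4 and 5, -0.95 for 6 to 8 and -1.11 for 9. The count of Hox calls fell when either wild-type library was left out and rose when either EH library was. The share of all genes called in those fits is not given here, so the drop is not shown to be particular to Hox genes. With only EH and wild type in the fit 7 passed (1 higher, 6 lower), where 5.38% of all genes were higher and 7.48% lower. The 5 calls lost there were those of Hoxb9 (edgeR adjusted p = 0.0515), Hoxb8 (0.0555), Hoxb1 (0.0597), Hoxd3 (0.074) and Hoxd9 (0.0748). Of the 23 Hox genes at 1 TPM or more in wild type, 17 had both EH libraries below both wild-type libraries and 3 above, against 33.0% and 26.8% of all genes at that level. The 12 genes called kept the sign of their fold change in each fit without a wild-type library.

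HD and EH, compared directly, differed at 16 Hox genes, all higher in HD (edgeR, adjusted p under 0.05), where 11.8% of all genes were higher and 9.43% lower. All 5 HoxD genes tested were among them, with 6 of 10 in HoxB, 4 of 6 in HoxA and 1 of 5 in HoxC (Hoxc6). The median log2 fold change was 1.25 over the 26, against -0.00978 over all genes, and 0.92 for paralogs 1 to 3, 0.44 for 4 and 5, 1.46 for 6 to 8 and 2.14 for 9. With only HD and EH in the fit 15 passed, all higher in HD, where 7.18% of all genes were higher and 5.11% lower. Of the 23 Hox genes, 18 had both HD libraries above both EH libraries and 1 below, against 31.9% and 29.0% of all genes. The count fell when either HD library was left out and rose when either EH library was, and the share of all genes in those fits is not given here.

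**Figure D3:**
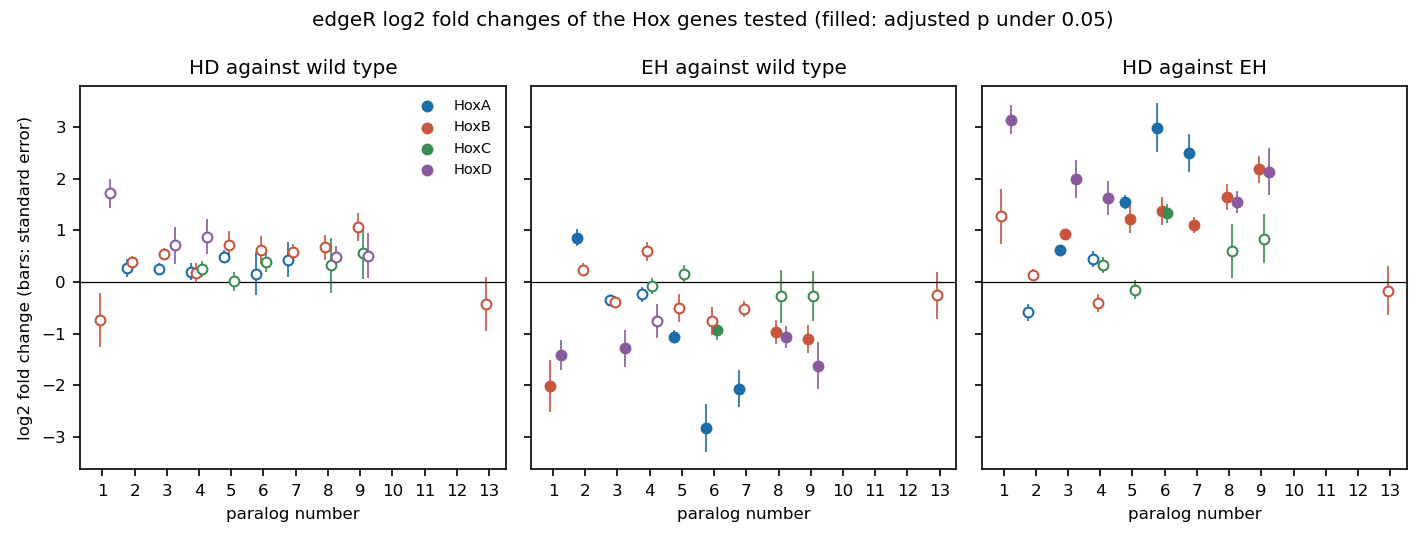
Fitted log2 fold change of each of the 26 Hox genes tested against paralog number, for HD against wild type, EH against wild type and HD against EH, coloured by cluster, with bars for the standard error. Filled points have an adjusted p under 0.05 in edgeR: 0 genes on the left, 12 in the middle and 16 on the right.

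Among the hindbrain-level genes, Hoxd1 showed the widest range. Its TPM was 2.42 and 3.33 in wild type, 10.3 and 8.63 in HD and 0.92 and 1.21 in EH. The 3 groups did not overlap, with HD highest and EH lowest. EH was lower than wild type by a log2 fold change of -1.42 ± 0.29 (standard error; edgeR adjusted p = 0.0189) and HD exceeded EH by 3.14 ± 0.28 (edgeR adjusted p = 0.00245). Against wild type, HD was at 1.72 ± 0.28 (edgeR adjusted p = 0.0938).

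Hoxd3, the most abundant HoxD gene, was at 93.3 and 73.8 TPM in wild type, 153 and 111.5 in HD and 18.7 and 48.0 in EH. Both HD libraries stood above wild type and both EH libraries below, with a wide gap within EH. The log2 fold change was -1.29 ± 0.36 for EH against wild type (edgeR adjusted p = 0.0469) and 2.00 ± 0.37 for HD against EH (edgeR adjusted p = 0.0135). Its EH call was lost with DESeq2, with limma on log2(TPM + 1), with the replicate block and with only 2 groups in the fit.

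Hoxa3 and Hoxb3, which pattern the caudal hindbrain, moved less. Hoxb3 was at 54.9 and 54.9 TPM in wild type, 82.5 and 82.3 in HD and 37.6 and 49.1 in EH. Hoxa3 was at 30.6 and 31.9 in wild type, 36.9 and 35.2 in HD and 22.4 and 25.2 in EH. In both genes the 3 groups were ordered HD, wild type, EH without overlap. HD exceeded EH by 0.92 ± 0.11 for Hoxb3 and 0.61 ± 0.10 for Hoxa3 on the log2 scale (edgeR adjusted p = 0.00509 and 0.0103).

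Hoxa2 went the other way in EH. It was at 17.2 and 17.4 TPM in wild type, 20.4 and 20.9 in HD and 25.9 and 36.0 in EH, and rose by 0.86 ± 0.17 in EH (log2; edgeR adjusted p = 0.0182). Hoxb1, the marker of the facial motor level, was at 2.73 and 2.82 in wild type, 1.38 and 1.89 in HD and 1.09 and 0.33 in EH. It was below wild type in both lines, and its fall in EH was -2.02 ± 0.50 (log2; edgeR adjusted p = 0.0334).

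Among the neck and forelimb-level genes, Hoxa5, which phrenic motor neurons need, separated the groups most clearly. Its TPM was 187 and 195 in wild type, 277 and 258 in HD and 79.8 and 101.5 in EH. No 2 groups overlapped. The log2 fold change was -1.06 ± 0.13 for EH against wild type (edgeR adjusted p = 0.0059), 1.55 ± 0.13 for HD against EH (edgeR adjusted p = 0.0022) and 0.49 ± 0.13 for HD against wild type (edgeR adjusted p = 0.374; 0.0149 with only these 2 groups in the fit).

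Hoxb5, its HoxB paralog, was at 229 and 253 TPM in wild type, 403 and 381 in HD and 114 and 223 in EH. HD stood above the other 2 groups, and the EH libraries lay far apart but both below wild type. HD exceeded EH by 1.22 ± 0.28 (log2; edgeR adjusted p = 0.0253), a call lost with only 2 groups in the fit. Hoxb4 was at 44.5 and 38.2 in wild type, 52.5 and 40.4 in HD and 52.4 and 70.7 in EH, with EH highest on average and no call in the 3 comparisons. Hoxc4 was at 136 and 120.2 in wild type, 160 and 143 in HD and 103 and 138 in EH, and its EH libraries spanned the wild-type range. Hoxd4 was at 36.2 and 34.5 in wild type, 69.3 and 59.3 in HD and 11.9 and 28.4 in EH, in the order HD, wild type, EH without overlap. It was higher in HD than in EH (edgeR adjusted p = 0.0173). Hoxa4 and Hoxc5 had means of 42.7 and 77.3 TPM in wild type and passed in none of the 3 comparisons, nor did Hoxb2 with 51.6 and 52.3 in wild type.

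Among the forelimb and thoracic-level genes, Hoxa6 and Hoxa7 had the largest falls in EH. Hoxa6 was at 7.70 and 9.52 TPM in wild type, 13.6 and 5.69 in HD and 1.31 and 1.07 in EH. These rested on few reads: 44 and 55 counts in wild type, 62 and 29 in HD and 22 and 17 in the deeper EH libraries. Both EH libraries were lowest, and the HD pair spanned wild type. The log2 fold change was -2.83 ± 0.46 for EH against wild type (edgeR adjusted p = 0.0108).

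Hoxa7 was at 8.09 and 9.70 TPM in wild type, 7.94 and 14.8 in HD and 2.85 and 1.25 in EH. HD overlapped wild type and EH did not. It fell by 2.07 ± 0.36 on the log2 scale in EH (edgeR adjusted p = 0.0125). Hoxc6, which marks the forelimb lateral motor column, was at 49.2 and 71.4 in wild type, 73.0 and 83.5 in HD and 32.0 and 30.3 in EH. The groups did not overlap, and the fall in EH was -0.94 ± 0.19 (log2; edgeR adjusted p = 0.0176). Hoxc8, which acts in forelimb motor pools, was at 1.82 and 3.45 in wild type, 2.30 and 4.33 in HD and 3.01 and 1.32 in EH, with all groups overlapping.

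Hoxb8 reached 140 and 156 TPM in wild type, 212 and 271 in HD and 42.6 and 71.4 in EH. HD was highest and EH lowest without overlap, and EH differed from wild type by -0.97 ± 0.24 (log2; edgeR adjusted p = 0.0333) and HD from EH by 1.64 ± 0.25 (edgeR adjusted p = 0.00808). Hoxb7 was at 48.3 and 55.9 in wild type, 76.3 and 79.5 in HD and 31.5 and 41.6 in EH, in the same order. Hoxb6 was at 93.3 and 107 in wild type, 151 and 157 in HD and 41.5 and 78.8 in EH, again in that order, and both genes were higher in HD than in EH (edgeR adjusted p = 0.0162 for Hoxb6 and 0.00758 for Hoxb7). Hoxd8 was at 6.99 and 7.51 in wild type, 7.87 and 11.3 in HD and 4.05 and 4.74 in EH, and fell in EH by 1.07 ± 0.21 on the log2 scale (edgeR adjusted p = 0.0176).

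Hoxb9, the last HoxB gene before the long gap to Hoxb13, was at 8.36 and 13.6 TPM in wild type, 20.2 and 26.2 in HD and 5.2 and 5.33 in EH. The 3 groups were in the same order without overlap. HD exceeded EH by 2.18 ± 0.27 (log2; edgeR adjusted p = 0.00519), EH was below wild type at -1.11 ± 0.27 (edgeR adjusted p = 0.0309), and HD against wild type was 1.06 ± 0.27 (edgeR adjusted p = 0.365). Hoxd9 was near the limit of detection, with 8 and 12 counts in wild type, 9 and 15 in HD and 9 and 9 in EH, in libraries of unequal depth, so its call in EH rests on few reads.

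Of 8 noncoding genes within the clusters that were tested, 2 fell in EH (Hotairm1 and Halr1) where 11.6% of all genes fell, 0 passed in HD, and 5 were higher in HD than in EH, where 11.8% of all genes were. Hoxb3os was in the other order, at 4.53 and 5.91 TPM in wild type, 5.5 and 5.72 in HD and 6.26 and 10.2 in EH. Hotairm1, at the low-numbered end of HoxA, was at 167 and 190 TPM in wild type, 248 and 281 in HD and 54.7 and 76.3 in EH, and fell by 1.61 ± 0.20 on the log2 scale in EH (edgeR adjusted p = 0.00596). Genes flanking the clusters gave 1 higher and 1 lower of 9 in EH and 0 of 9 in HD. Libraries were stranded, but the counting setting is not given in the sources used here, so reads of overlapping sense and antisense genes cannot be told apart.

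Hox cofactors and upstream regulators did not all follow the Hox genes. Of 9 PBX, MEIS and PKNOX cofactors, 4 rose and 1 fell in EH and 0 passed in HD, where 9.61% of all genes rose and 11.6% fell in EH. These shares hold for the other gene lists too. Meis1 rose by 1.08 ± 0.19 and Meis2 by 0.63 ± 0.12 on the log2 scale (edgeR adjusted p = 0.0129 and 0.0142). Of 11 axial and retinoic acid genes tested, 3 rose, Rara among them, and 5 fell in EH, and 0 passed in HD. Cdx2, a caudal activator of Hox genes that trophoblast also expresses, was at 10.7 and 14.8 TPM in wild type, 10.2 and 16.6 in HD and 3.28 and 0.77 in EH. It fell in EH (edgeR adjusted p = 0.0254), where the trophoblast sum was also lower, and their relation was not tested.

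Of 14 Polycomb, trithorax and demethylase genes, 3 rose in EH (Suz12, Ezh1 and Kdm6b) and 0 passed in HD. Of 9 motor column genes that act with or downstream of Hox genes, 6 fell in EH and 1 in HD, and 5 were higher in HD than in EH, among them Runx1, Aldh1a2 and Lhx1. Pou3f1, a POU factor of forelimb-level motor pools, was at 11.1 and 11.2 TPM in wild type, 1.83 and 1.97 in HD and 1.89 and 2.45 in EH. It was low in both lines (-2.54 ± 0.19 in HD and -2.34 ± 0.18 in EH, log2; edgeR adjusted p = 0.0116 and 0.00255). Foxp1, the Hox cofactor of the lateral motor column, was at 23.9 and 32.2 in wild type, 56.5 and 57.8 in HD and 22.2 and 31.2 in EH, and was higher in HD than in EH (edgeR adjusted p = 0.0121).

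H3K27ac lay mostly on the low-numbered side of the clusters and the widest H3K27me3 regions on the high-numbered side, with overlap over expressed genes. The authors gave 1 peak list per mark and genotype, so nothing can be said of spread between ChIP libraries and no test was made. In wild-type motor neurons H3K27me3 regions covered 60.9% of the 485 kb of the clusters, against 0.745% of the genome. H3K27ac, a mark of active promoters and enhancers, covered 35.2% (genome 0.987%) and H3K4me3, a mark of promoters, 49.5% (genome 1.53%). In HoxA, H3K27ac ran over the low-numbered genes to Hoxa6, and a single H3K27me3 region of 60.8 kb began 48.7 kb from the low-numbered end and held the starts from Hoxa7 to Hoxa13 and the distal annotated start of Hoxa3. In HoxC a 96.9 kb H3K27me3 region began 33.2 kb from the low-numbered end, in Hoxc6. In HoxD the largest, of 48.6 kb, ran from Hoxd9 to Hoxd13. In HoxB the widest covered Hoxb9 over 29.1 kb, and a separate stretch covered Hoxb13. Shorter regions covered 84.3% of the gene body of Hoxb6, 74.1% of Hoxb7 and 99.5% of Hoxb8, all expressed genes.

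All 15 Hox genes under 1 TPM in wild type had gene bodies covered over 100% of their length by H3K27me3. Of the 17 at 10 TPM or more, the median cover was 41.0% with a range from 0% to 100%. H3K27ac was the reverse, with a median of 98.3% of the gene body in the 17 and 0% in the 15. H3K27me3 also lay over genes with high transcript levels. Hoxb8, at 140 and 156 TPM, was covered over 99.5% by H3K27me3 and over 61.0% by H3K27ac. Hoxc6 was covered over 97.0% by H3K27me3 and Hoxd4 over 81.7%, the latter by a weak region (-log10 q of 3.88). In HoxD 78.9% of the H3K27ac length lay in H3K27me3 regions in wild type and 28.4% in HD, against 25.5% and 14.2% in HoxB. The wild-type HoxD regions counted had -log10 q from 2.15 to 27.1, and the overlap was not computed at a stricter cut. Entries of the H3K27ac list labelled wild type are named as knockout, so this contrast rests on that label. Hoxb1 and Hoxd1, at the low-numbered ends of HoxB and HoxD, were covered over 73.5% and 81.4% by H3K27me3 and over 0% by H3K27ac, with levels of 2.42 to 3.33 TPM. The annotated spans of Hoxa3, Hoxb3 and Hoxd3 contain other Hox genes, so their cover is not separate from that of those genes. Such overlap in a mixed culture does not show both marks in the same cell.

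**Figure D4:**
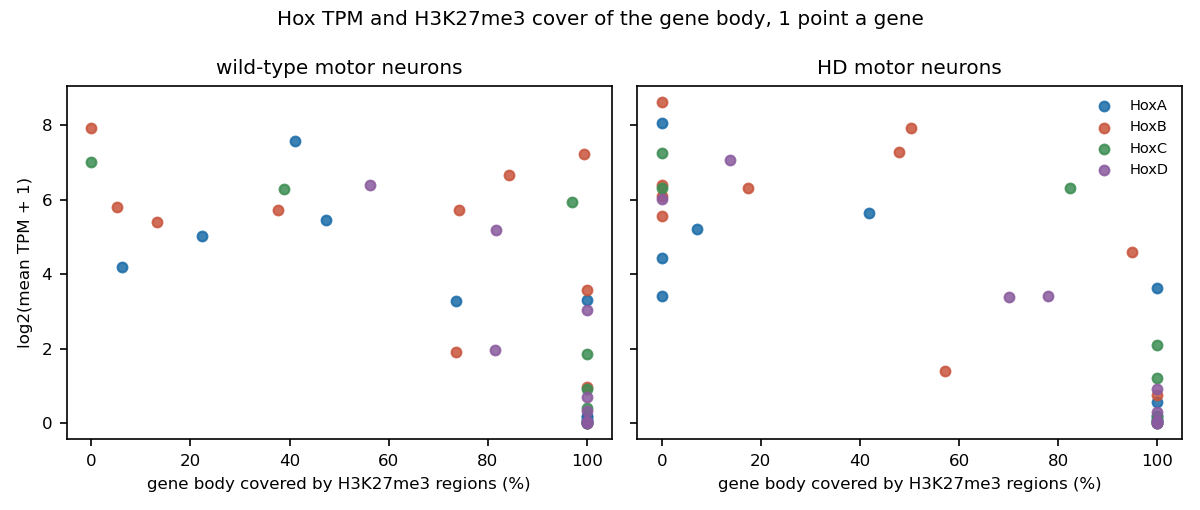
Share of each gene body under H3K27me3 regions (x axis, percent) against log2(mean TPM + 1), 1 point for each of 38 Hox genes, in wild-type (left) and HD motor neurons (right). Silent genes sit at 100% in both panels, and several expressed genes move to 0% in HD.

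In HD, H3K27me3 covered less of the clusters: 49.0% against 60.9%, or 80.5% of the wild-type length. Over the whole genome the HD list covered 63.5% of the wild-type length. The share kept was 94.9% in HoxC, 83.9% in HoxA, 71.8% in HoxB and 68.0% in HoxD. What remained was inside the wild-type regions to 98.4% or more in each cluster. The highest fold enrichment, the authors' value for a peak, was also lower in HD (9.98 against 15.4 in HoxA), as it was for H3K4me3 (26.9 against 79.2), and the depth of the ChIP libraries was not used here. H3K27ac cover was 36.9% in HD, 105% of the wild-type length (108% over the genome). Since entries of the list labelled wild type are named as knockout, the direction of each H3K27ac difference rests on that label. With the labels turned the ratio is 95.4% (92.2% over the genome).

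H3K27me3 regions missing in HD lay over expressed genes and between genes. The 14 genes under 1 TPM in HD stayed covered over 100% of their length. Between genes, a 5.49 kb region of HoxD (chr2:74749016-74754505, -log10 q of 4.75) was cut to 0.58 kb. Cover of the gene body went from 41.0% to 0% at Hoxa5, from 73.6% to 0% at Hoxa6, from 81.7% to 0% at Hoxd4, from 56.2% to 13.7% at Hoxd3, from 99.5% to 50.3% at Hoxb8 and from 74.1% to 17.5% at Hoxb7. It stayed at 100% at Hoxa7, Hoxc8 and Hoxc9. The wild-type regions over Hoxa5, Hoxa6, Hoxb7 and Hoxd4 were weak, with -log10 q of 1.71 to 4.18, all under the cut of 5. The region over Hoxb8 had -log10 q of 10.3. Near starts (within 1 kb), 34 of the 38 Hox genes had an H3K27me3 region in wild type and 28 in HD, against 19.1% and 13.7% of all protein-coding genes. The 6 without it in HD were Hoxa2, Hoxa5, Hoxa6, Hoxb2, Hoxb5 and Hoxc5, and among all protein-coding genes with the mark in wild type 29.3% had none in HD. The wild-type regions near these 6 had -log10 q of 1.62 to 4.42. Hoxb2 was counted by its 3′ end only. With starts taken from the strand of the cluster the counts were 33 and 28. Of these 6, Hoxa5 and Hoxb5 had higher transcript levels in HD in the fit of only these 2 groups (edgeR adjusted p = 0.0149 and 0.00515), and 0 passed in the fit of 6 libraries. In that 2-group fit 8 of all 26 Hox genes tested rose, and a link to loss of the mark was not tested. At -log10 q of 5 or more the counts were 28 and 27, against 34 and 28 over all regions.

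**Figure D5:**
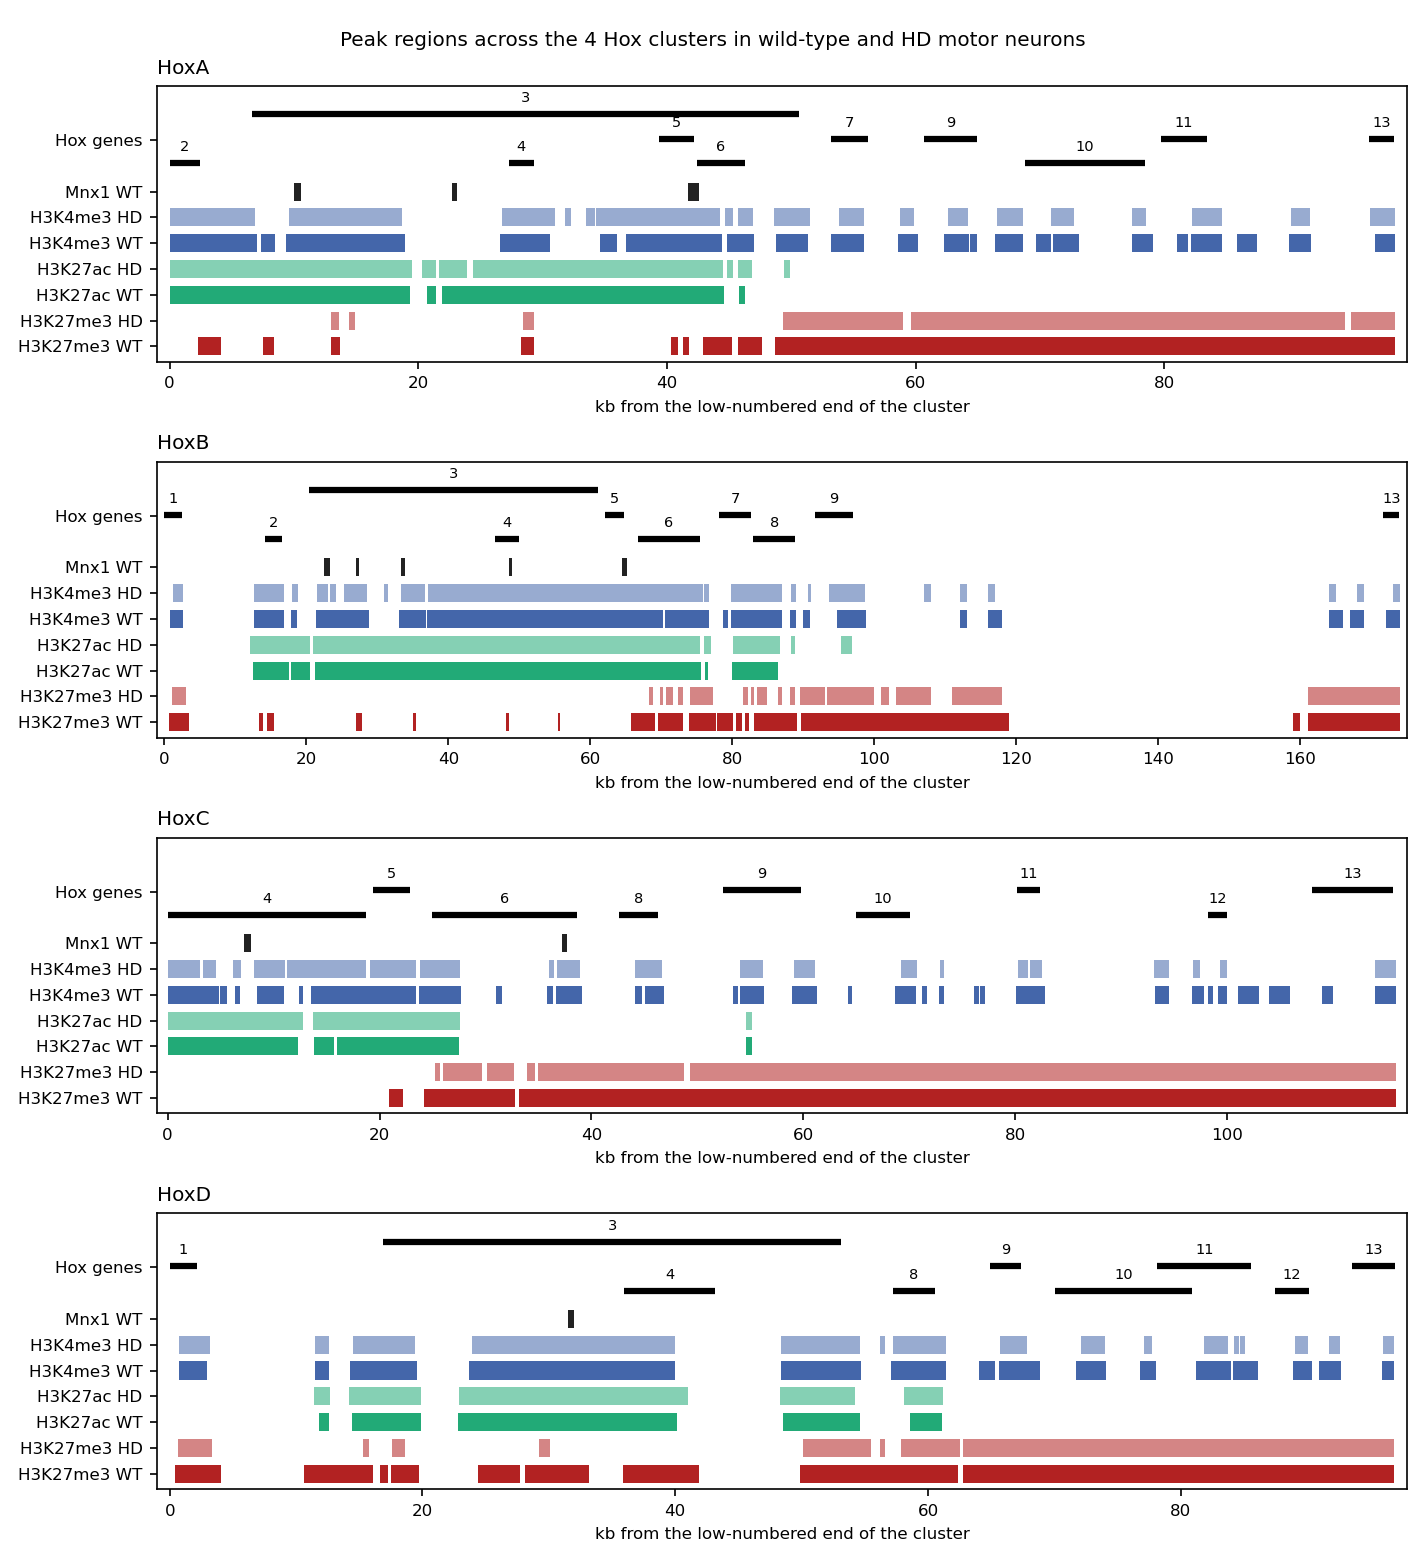
Peak regions of H3K27me3, H3K27ac and H3K4me3 in wild-type (WT, dark) and HD (pale) motor neurons and of Mnx1 in wild type, with gene spans by paralog number, in kb from the low-numbered end of each cluster. H3K27ac fills most of the low-numbered side and H3K27me3 the high-numbered side, with the widest HoxA H3K27me3 region starting at 48.7 kb in wild type, and Hoxb1 and Hoxd1 lie under H3K27me3.

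H3K4me3 marked the starts of 37 of the 38 genes in both wild type and HD, against 63.3% and 62.4% of protein-coding genes, including all 12 of paralogs 10 to 13. H3K27me3 and H3K4me3 were both near the start of 34 genes in wild type and 28 in HD, against 18.4% and 13.3% of protein-coding genes. H3K27ac was near 16 starts in wild type and 18 in HD, against 44.6% and 45.7%. The added starts were Hoxa3 and Hoxb9, and at Hoxb9 H3K27ac cover of the gene body was 0% in the list labelled wild type and 28.5% in HD. H3K4me1 was near 36 and 30 starts (61.1% and 53.5%). H3K9me3 was near 22 and 19 (8.06% and 5.16%), and lay within H3K27me3 regions over 90.8% to 100% of its length in each cluster, against 26.6% over the genome in wild type. H3K27me3 itself covered 60.9% of the clusters and 0.745% of the genome in wild type, so the genome-wide share is no yardstick. The H3K9me3 ChIP had no replicate library in either genotype, unlike the other histone marks. At -log10 q of 5 or more, H3K9me3 cover of the clusters fell from 30.4% to 12.5% in wild type.

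Mnx1 had 11 of its 5793 regions in the 4 clusters: 3 in HoxA, 5 in HoxB, 2 in HoxC and 1 in HoxD. Of these, 10 overlapped H3K27ac by any length, against 77.3% of all Mnx1 regions, and 4 overlapped H3K27me3, against 3.33%. H3K27me3 covered 60.9% of the clusters and 0.745% of the genome, so the genome-wide share is no yardstick for these 4. The strongest was at the Hoxa5 start (chr6:52204155-52204992), its middle 14 bases from the start, with a fold enrichment of 10.6 in the authors' list and rank 10 of 5793 (the median was 3.94). It contains the whole Hoxa5 window printed above. This region overlapped H3K27ac in wild type and HD. In wild type a weak H3K27me3 region (chr6:52203732-52204242, -log10 q of 3.16) touched only its edge, outside the printed window. No H3K27me3 region overlapped it in HD. The second was at Hoxb5 (chr11:96303070-96303788), 83 bases from the start, with a fold of 5.76. Regions near Hoxb4 and Hoxc6 came within 1 kb of the starts by their edges, so 4 of 38 Hox starts were counted, against 13.3% of protein-coding genes. No gene with a paralog number above 6 had an Mnx1 region near its start.

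The microRNA genes fell on both the low-numbered H3K27ac side and the high-numbered H3K27me3 side. Mir10a lay in H3K27ac without H3K27me3 in both genotypes. Mir10b lay in both marks in wild type (its H3K27me3 region at -log10 q of 3.88) and in H3K27ac alone in HD. Mir196a-1, Mir196a-2 and Mir196b lay in H3K27me3 and not in H3K27ac in both genotypes. Their mature RNAs were not analysed here.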

How the data were processed

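RNA was measured in 8 libraries and chromatin in 22 ChIP and input libraries, grouped from the labels alone. The deposited RNA files give an expected count and TPM per gene, per the file headers. The authors' peak lists give for each region a fold enrichment ratio and a -log10 q. RSEM, STAR, Bowtie2, MACS2, Trim Galore, SAMtools, featureCounts, Subread and DESeq2 are named with the mm10 build in the submitters' processing notes, with no versions or order. The entries of the H3K27ac list labelled wild type are named as knockout, and the label was followed.

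After rounding, the counts entered the quasi-likelihood test of edgeR 4.0.16 under R 4.3.3, scaled by TMM and filtered by filterByExpr, with Benjamini-Hochberg adjustment over all genes tested and a threshold of 0.05. A single fit of 6 libraries served HD against wild type, EH against wild type and HD against EH (3 residual degrees of freedom) and a fit of 8 served the comparison with ES cells. Standard errors were derived from the F statistic. Alternatives were DESeq2 1.42.0, RLE scaling, no filter, limma 3.58.1 on log2(TPM + 1), a fit of 2 groups, a replicate block and leaving out each library. The script was tested on simulated data.

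Clusters run between the outermost Hox genes described here. A start counted as marked where a region overlapped the 1 kb on each side of it. Starts came from the RefSeq promoter table for 22 genes, and for 16 without an entry either gene end was used. Values in every library are given for the 12 genes of smallest adjusted p among the motor neuron comparisons, and for the highest gene and the last gene of at least 1 TPM in each cluster and the genes with an Mnx1 region at the start. The values of Hoxa2, Hoxb1, Hoxb6, Hoxd4 and Hoxd9, called among motor neurons, were added after the calls were seen. One further Hox gene is not reported here. The members and gene lists were chosen with earlier results of these data known.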

Additional observations from a re-analysis of the deposited data

Results flagged for a closer look

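The direct comparison of the 2 lines labelled Mnx1KO differed at 16 Hox genes (edgeR, Benjamini-Hochberg adjusted p under 0.05), each higher in HD than in EH. On the log2 scale the difference was 0.61 for Hoxa3, 1.55 for Hoxa5, 2.99 for Hoxa6 and 2.5 for Hoxa7 in HoxA. In HoxB it was 0.92 for Hoxb3, 1.22 for Hoxb5, 1.38 for Hoxb6, 1.10 for Hoxb7, 1.64 for Hoxb8 and 2.18 for Hoxb9. In HoxC it was 1.33 for Hoxc6. In HoxD it was 3.14 for Hoxd1, 2.00 for Hoxd3, 1.63 for Hoxd4, 1.55 for Hoxd8 and 2.14 for Hoxd9. Depth (11.2 and 12.4 M of expected counts in HD, 39.7 and 39.8 M in EH) differed between the same libraries. So did the trophoblast, interneuron, neural progenitor and spinal motor neuron marker sums. The spinal motor neuron sum was 1422 to 1630 TPM in HD and 1918 to 2330 in EH. Of those 8 markers, 5 were lower in HD and 0 higher, where 9.43% of all genes were lower and 11.8% higher. The part of these differences in the Hox values was not tested.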

How the results depend on the processing

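Of 924 alternative log2 fold changes for 22 Hox genes, 61 left the threshold, 35 crossed it and 10 changed sign, none of the 10 called in either fit. Those 10 came from leaving out 1 library, which moved Hoxa6 between -0.59 and 0.67, Hoxb4 between -0.02 and 0.35 and Hoxc8 between -0.21 and 0.88 for HD against wild type. For EH against wild type it moved Hoxc4 between -0.29 and 0.13, Hoxc8 between -0.97 and 0.29 and Hoxc9 between -0.74 and 0.16. For HD against wild type, DESeq2 gave 3 called Hox genes, no low-count filter 1 and a fit of only the 2 groups 8, against 0. Each library left out in turn gave 0. For EH against wild type, a fit of the 2 groups gave 7 against 12, and leaving out 1 library gave 0 to 17. The low values came without wild-type replicate 1 (1) or 2 (0). For HD against EH, leaving out 1 library gave 4 to 19 against 16. In these fits the group left with 1 library is assumed to vary like the others. The share of all genes called in them is not given here, so their shifts are not shown to be particular to Hox genes. With the replicate number as a block the counts were 0 for HD against wild type, 9 for EH against wild type, 16 for HD against EH and 27 for motor neurons against ES cells. Same-numbered libraries correlated at 0.102, -0.11 and -0.137 in their deviations, so the numbers were not taken as pairs. The crossed pairing as a block in a fit of only the 2 groups, added after seeing the data, gave 14 for EH against wild type and 18 for HD against EH, where the fit of 2 groups without a block gave 7 and 15.

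At -log10 q of 5 or more, cover of the clusters in wild type and HD was 53.9% and 45.5% for H3K27me3, 49.4% and 43.8% for H3K4me3, 34.4% and 36.2% for H3K27ac, 44.4% and 32.6% for H3K4me1 and 12.5% and 4.76% for H3K9me3. With clusters widened by 10 kb at each end it was 59.3% and 48.6%, 46.8% and 41.7%, 33.2% and 35.0%, 43.0% and 31.0% and 30.9% and 26.3%, and 1.32% for Mnx1 in wild type. H3K9me3 was near 13 starts in wild type and 6 in HD at -log10 q of 5 or more. With at least 50% of the window covered, H3K4me1 was near 14 starts in HD and Mnx1 near 0. The cause of these shifts was not tested. ChIP depth was not used here.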
